A study of Mus musculus with 4 samples.

Results

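The serpins are a family of protease inhibitors whose genes carry the symbol Serpin followed by a letter for the clade. Members were the protein coding rows of the deposited gene table whose symbol begins with Serpin. The 58 genes described here come from 36814 rows in all and 22667 protein coding rows. They fall into 9 clades, of which clade a holds 23 genes and clade b 26, while clades f and i give 2 each and clades c, d, e, g and h give 1 each. Transcripts had been sequenced from the heart ventricles of mice at postnatal day 14, with the atria removed. The control group was 2 wild type mice, 1 male and 1 female. The mutant group was 2 Hnrnpu mutant mice, 1 male and 1 female, made by crossing a conditional Hnrnpu allele to Ckmm-Cre, a recombinase under the muscle creatine kinase promoter, so that deletion is directed to muscle cells and the other cells of the ventricle keep the gene. Both groups were on a mixed C57BL/6 and 129 S4 background. Hnrnpu encodes a nuclear protein that binds RNA and chromatin.

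The table holds 1 RPKM value (reads scaled to transcript length and to the reads of the library) for each group, with the authors' own fold change, p-value and adjusted p-value. The spread between the 2 animals of a group and the sequencing depth cannot be read from it, so every level below is the authors' group value, without an error, and every test is the authors'. A gene is called where the adjusted p in the authors' deposited table is under 0.05. The targeted gene, Hnrnpu, was at 32.7 RPKM in control ventricles and 15.2 RPKM in mutant ventricles, with an adjusted p of 0.438 in the authors' deposited table.

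Most serpins inhibit serine proteases by a single-use trap. The protease cuts an exposed reactive centre loop, the loop folds into the body of the serpin, and both proteins stay locked together. The residues of the loop decide which protease is caught. Some members do not inhibit proteases at all: Serpinh1, also called Hsp47, is a chaperone of collagen in the endoplasmic reticulum, and Serpina6 and Serpina7 carry hormones in plasma. Clade b serpins mostly act inside cells, and most other clades are secreted, many of them by the liver into plasma.

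Close relatives in clades a and b are shown by their loop, which differed more than the rest of the coding sequence in the pairs given here. The 5 stretches below come from the genes whose rows, or whose nearest neighbours' rows, carried the largest called folds or were listed at 0 in control and called. They are the coding strand of GENCODE reference transcripts (release M21, built on GRCm38), from the conserved glutamate at the hinge of the loop to the phenylalanine that closes it, 5′ to 3′. For the Serpina3 genes, which lie on chromosome 12, capitals mark bases that differ from Serpina3n in an alignment of the stretches.
Serpina3n: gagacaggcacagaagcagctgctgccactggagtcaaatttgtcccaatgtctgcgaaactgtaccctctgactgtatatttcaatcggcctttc
Serpina3m: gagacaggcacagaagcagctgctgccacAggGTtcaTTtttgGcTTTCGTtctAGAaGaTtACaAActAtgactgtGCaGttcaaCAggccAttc
Serpina3c: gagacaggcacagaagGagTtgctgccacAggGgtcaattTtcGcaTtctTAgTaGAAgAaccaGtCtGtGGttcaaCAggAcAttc
The Serpina3m stretch is 96 bases long, as is that of Serpina3n, and 28 of its bases differ. The Serpina3c stretch is 87 bases long and 23 of its bases differ. The first 29 bases of Serpina3m and the first 16 of Serpina3c equal those of Serpina3n. Over the whole coding sequence Serpina3m was 85.2% identical to Serpina3n, but over the loop stretch 70.8%. For Serpina3c the same identities were 85.0% and 66.7%.

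The clade b pair on chromosome 13 is Serpinb1a, an intracellular inhibitor of neutrophil proteases, and its paralog Serpinb1c. Capitals mark bases of Serpinb1c that differ from Serpinb1a.
Serpinb1a: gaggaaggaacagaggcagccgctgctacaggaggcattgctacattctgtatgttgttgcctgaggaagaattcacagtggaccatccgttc
Serpinb1c: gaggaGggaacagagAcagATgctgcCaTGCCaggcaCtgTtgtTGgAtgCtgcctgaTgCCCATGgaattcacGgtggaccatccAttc
Of the 90 bases of the Serpinb1c stretch, 24 differ from Serpinb1a. Their coding sequences are 88.2% identical and their loop stretches 68.0%.

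Serpinh1 supplied most serpin transcripts in both groups. Of the 58 genes, 14 were listed at 0 in both groups and 44 were tested. Their summed level was 149 RPKM in control ventricles and 272 RPKM in mutant ventricles, which is 1.82 times as high. Serpinh1 made up 71.1% of the control sum and 53.3% of the mutant sum. Without Serpinh1, the sums were 43.2 RPKM and 127 RPKM, a ratio of 2.94. Without Serpinh1 and Serpina3n they were 42.5 RPKM and 92.4 RPKM. Of the difference of 123 RPKM between the 2 sums, Serpinh1 held 31.7% and Serpina3n 27.7%. These sums have no replicate error.

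**Figure D1:**
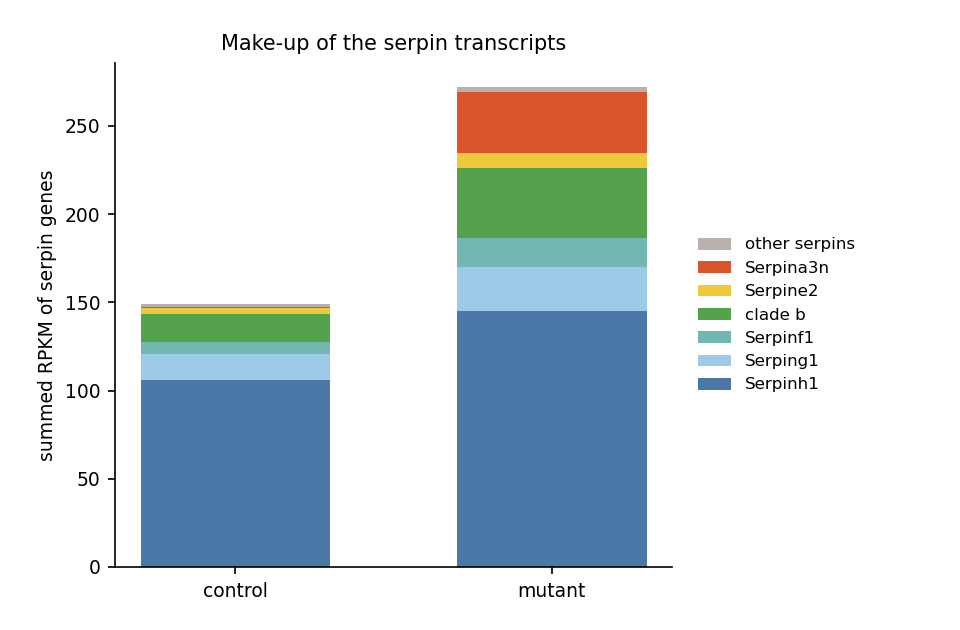
Summed RPKM of the serpin genes in control and mutant ventricle, with 1 deposited value per gene and group. The colours stack Serpinh1, Serping1, Serpinf1, clade b, Serpine2, Serpina3n and all other serpins. Serpinh1 is the largest part of both bars, and Serpina3n grows from 0.428% to 12.8% of the bar.

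By the adjusted p of the authors' deposited table, 4 of the 44 tested serpins were called, all of them higher in mutant ventricle: Serpina3n, Serpina3m, Serpina3c and Serpinb1c. Of all protein coding rows tested, 4.06% were called, 2.42% higher and 1.64% lower, and no serpin was called lower. At an unadjusted p under 0.05, 10 serpins were higher and 0 lower, against 7.38% and 6.60% of protein coding rows. The median log2 fold change of the 25 serpins above 0 in both groups was 0.45, beside 0.01 over all protein coding rows above 0 in both groups. Over the 44 tested serpins it was 1.44, but 15 of those were listed at 0 in control alone and 4 in mutant alone.

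At 1 RPKM or more in both groups stood 8 serpins, and all 8 values were higher in the mutant. Over all protein coding rows at that level in both groups, 54.9% of 9385 were higher. A further 3 serpins, Serpina3n, Serpinb1c and Serpini1, reached 1 RPKM in the mutant alone. The other 47 stayed under 1 RPKM in both groups, with 0.585 RPKM as the highest value among them.

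**Figure D2:**
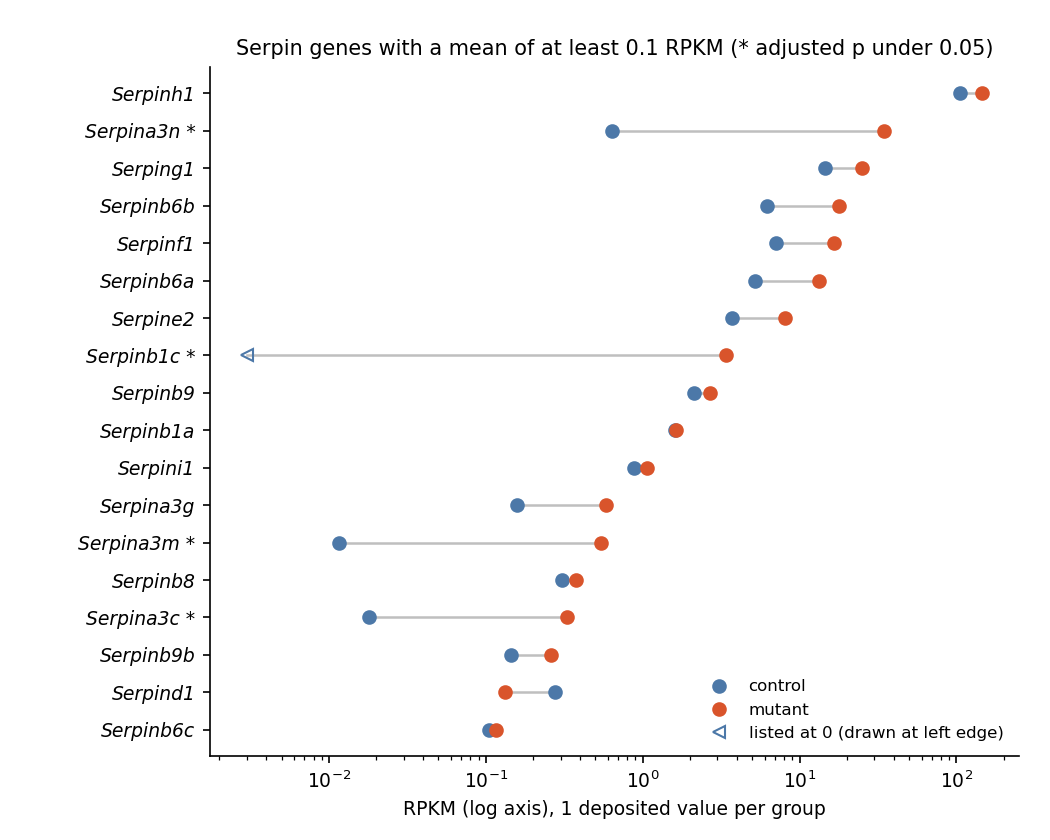
RPKM of the 18 serpin genes whose 2 group values average 0.1 RPKM or more, on a log axis, with control in blue and mutant in red and an asterisk on genes called by the authors' adjusted p. Serpind1 is the one gene drawn with its mutant value left of its control value.

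The Serpina3 genes of clade a held 3 of the 4 calls. Mice have many copies of the gene that humans have once as SERPINA3, or alpha-1-antichymotrypsin, an acute phase inhibitor of chymotrypsin-like proteases, and Serpina3n is the copy most often described in mouse inflammation. Serpina3n (mm9 chr12:105644939-105652539, plus strand) was at 0.638 RPKM in control ventricles and 34.7 RPKM in mutant ventricles. That is a fold of 54.4 with an adjusted p of 2.15e-18 in the authors' deposited table. It was the 10th most abundant serpin in control and the 2nd in the mutant, after Serpinh1.

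Serpina3m (mm9 chr12:105576696-105632467, plus strand) was at 0.0117 RPKM in control ventricles and 0.541 RPKM in mutant ventricles, a fold of 46.3 with an adjusted p of 0.00284 in the authors' deposited table. Serpina3c (mm9 chr12:105384592-105392080, minus strand) was at 0.0181 RPKM and 0.328 RPKM, a fold of 18.1 with an adjusted p of 0.0203 in the same authors' deposited table. Both stayed under 1 RPKM, so that Serpina3m held 1.83% of the Serpina3n level in control and 1.56% in the mutant. Their folds rest on control values near 0. With 0.1 and 1 RPKM added to both values, the log2 fold change of Serpina3m went from 5.53 to 2.52 and 0.61. That of Serpina3c went from 4.18 to 1.86 and 0.38, and that of Serpina3n from 5.77 to 5.56 and 4.45. How the authors treated reads that match several copies is not given in the sources used here. Of the 36-base windows of the Serpina3m reference transcript, 30.1% also occur in a transcript of another gene, most often Serpina3k, and 3.51% occur in Serpina3n. For Serpina3c 12.5% occur elsewhere and 3.26% in Serpina3n, and for Serpina3n 16.9% occur elsewhere. The Serpina3k row also lies wholly within the Serpina3m row, on the same strand and with the same start. The levels of these genes are therefore uncertain to the extent that reads were split between copies.

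The other Serpina3 genes were not called. Serpina3g was at 0.159 RPKM in control ventricles and 0.585 RPKM in mutant ventricles, with an unadjusted p of 0.0286 and an adjusted p of 0.295 in the authors' deposited table. Serpina3f was at 0.00877 RPKM and 0.0984 RPKM, with an unadjusted p of 0.0322 and an adjusted p of 0.316 in the authors' deposited table. Serpina3k was listed at 0 in control and at 0.0109 RPKM in the mutant. Its coding sequence is 91.0% identical to that of Serpina3m and its row lies within that of Serpina3m, so the 2 levels may not be separate. All 10 Serpina3 genes together summed to 0.868 RPKM in control ventricles and 36.3 RPKM in mutant ventricles. Of the 10 values 9 were higher in the mutant, beside 53.4% of tested protein coding rows. But 3 of the 10 were listed at 0 in control, so their tested values could only be higher. Of the 36-base windows of Serpina3g 5.37% occur in Serpina3n, and of those of Serpina3f 3.80%. The 10 values may therefore not be separate. Without Serpina3n the other 9 summed to 0.230 RPKM and 1.64 RPKM, so Serpina3n held nearly the whole sum.

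The remaining clade a genes were near 0, and all but Serpina7, which is on chromosome X, lie beside the Serpina3 genes. On chromosome 12 the 22 clade a genes span 0.798 Mb of mm9, from Serpina10 to Serpina3n, which is the last gene of the row. The 6 Serpina1 genes, mouse copies of the gene for alpha-1-antitrypsin, the main plasma inhibitor of neutrophil elastase, summed to 0.0360 RPKM in control ventricles and 0.0265 RPKM in mutant ventricles, and none was called. Serpina6, the carrier of corticosteroids in plasma, was at 0.0114 RPKM in control and listed at 0 in the mutant. Serpina7, the carrier of thyroxine, was listed at 0 in control and at 0.00366 RPKM in the mutant, and neither was called. In clade a as a whole 20 of 23 genes were tested, 3 were called higher and 0 lower, beside 2.42% and 1.64% of protein coding rows.

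**Figure D3:**
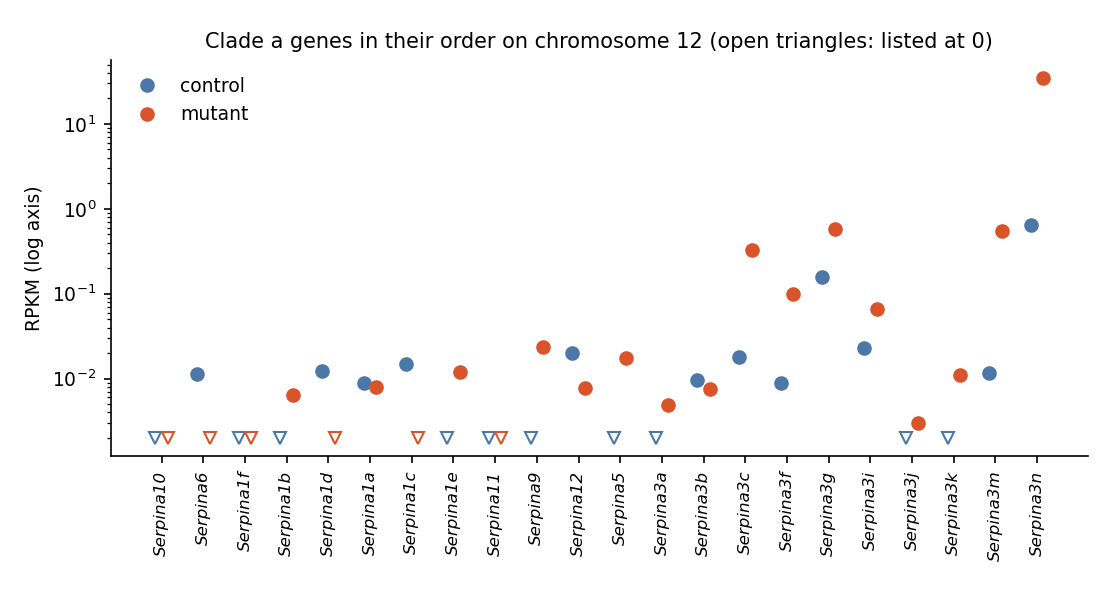
RPKM of the 22 clade a genes of chromosome 12 in their order along the chromosome, on a log axis, with control in blue, mutant in red and open triangles for values listed at 0. The 3 called genes, Serpina3c, Serpina3m and Serpina3n, are within the Serpina3 genes at the right, and the genes from Serpina10 to Serpina5 lie under 0.1 RPKM in both groups.

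Promoter sequence is shown for Serpina3n and Serpina3c because both were called and their upstream regions are close copies of each other. Each runs from 250 bases before to 50 bases after the gene start in the RefSeq table (build GRCm38.p6), and capitals in Serpina3c mark bases that differ from Serpina3n. The Serpina3n window is chr12:104406458-104406757 on the plus strand, and the Serpina3c window is chr12:104153823-104154122 on the minus strand.
Serpina3n promoter: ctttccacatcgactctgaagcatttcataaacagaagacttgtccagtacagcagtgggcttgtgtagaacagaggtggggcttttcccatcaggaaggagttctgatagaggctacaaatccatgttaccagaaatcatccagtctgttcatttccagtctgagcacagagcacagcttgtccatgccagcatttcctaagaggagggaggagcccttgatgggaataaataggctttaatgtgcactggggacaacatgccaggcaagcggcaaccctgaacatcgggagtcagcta
Serpina3c promoter: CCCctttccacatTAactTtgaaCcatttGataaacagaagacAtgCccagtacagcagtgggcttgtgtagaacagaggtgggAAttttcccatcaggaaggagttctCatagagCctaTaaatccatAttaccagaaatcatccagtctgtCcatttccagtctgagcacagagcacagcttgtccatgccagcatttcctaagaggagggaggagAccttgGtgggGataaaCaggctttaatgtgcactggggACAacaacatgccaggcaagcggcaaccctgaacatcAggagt
They were 89.9% identical, with 25 bases of Serpina3c differing. The table held promoters of 50 members and of 3 called ones, Serpina3n, Serpina3c and Serpinb1c. Motifs were searched on both strands of these windows. The STAT motif TTCNNNGAA was in 8 of the 50 members and in 9.55% of 27025 genes. The AP-1 motif TGANTCA was in 10 of the 50 and in 8.97% of genes, and the C/EBP-ATF motif TGATGNAA was in 4 of the 50 and in 4.51% of genes. The windows of the 3 called members held none of these letters.

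Serpine2, or protease nexin-1, is a secreted inhibitor of thrombin that also blocks the plasminogen activators tPA (Plat) and uPA (Plau). It was at 3.69 RPKM in control ventricles and 8.13 RPKM in mutant ventricles, a fold of 2.20 with an unadjusted p of 0.0233 and an adjusted p of 0.261 in the authors' deposited table, and so was not called. Its transcript shares no 36-base window with another gene.

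Of 11 tested genes of plasminogen activation, 0 were called higher and 1 lower, beside 2.42% and 1.64% of protein coding rows. The lower one was Vtn, the plasma and matrix protein vitronectin, at 8.46 RPKM in control ventricles and 1.44 RPKM in mutant ventricles, with an adjusted p of 4.01e-04 in the authors' deposited table. The activators were not called: Plat was at 11 RPKM and 12.2 RPKM, and Plau was at 1.46 RPKM and 1.05 RPKM. The plasminogen receptor subunits Anxa2 and S100a10 were at 17.1 and 37.5 RPKM, and at 26.9 and 18.9 RPKM, and neither was called. The median log2 fold change was 0.29 over the 10 genes above 0 in both groups, beside 0.01 for all such protein coding rows, and -0.17 over the 8 genes averaging 0.1 RPKM or more, so its sign depends on that minimum.

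Of 26 tested genes of coagulation and its anticoagulant pathway, 3 were called higher and 0 lower, beside 2.42% and 1.64% of protein coding rows. F2r, the thrombin receptor, was at 6.72 RPKM in control ventricles and 27.0 RPKM in mutant ventricles, with an adjusted p of 0.00789 in the authors' deposited table. Vwf, the carrier of factor VIII made by endothelium, was at 1.54 and 7.79 RPKM, and F13a1, which cross-links fibrin, at 3.65 and 11.6 RPKM. Among the genes not called, Gas6 was at 24.4 and 44.2 RPKM, Thbd, the thrombin-binding thrombomodulin, at 8.19 and 8.12 RPKM, and the inhibitor Tfpi at 7.4 and 8.29 RPKM. The plasma inhibitors of thrombin among the serpins were low: Serpinc1, or antithrombin, was at 0.0596 and 0.0515 RPKM, and Serpind1, or heparin cofactor II, at 0.278 and 0.132 RPKM. Neither was called.

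**Figure D4:**
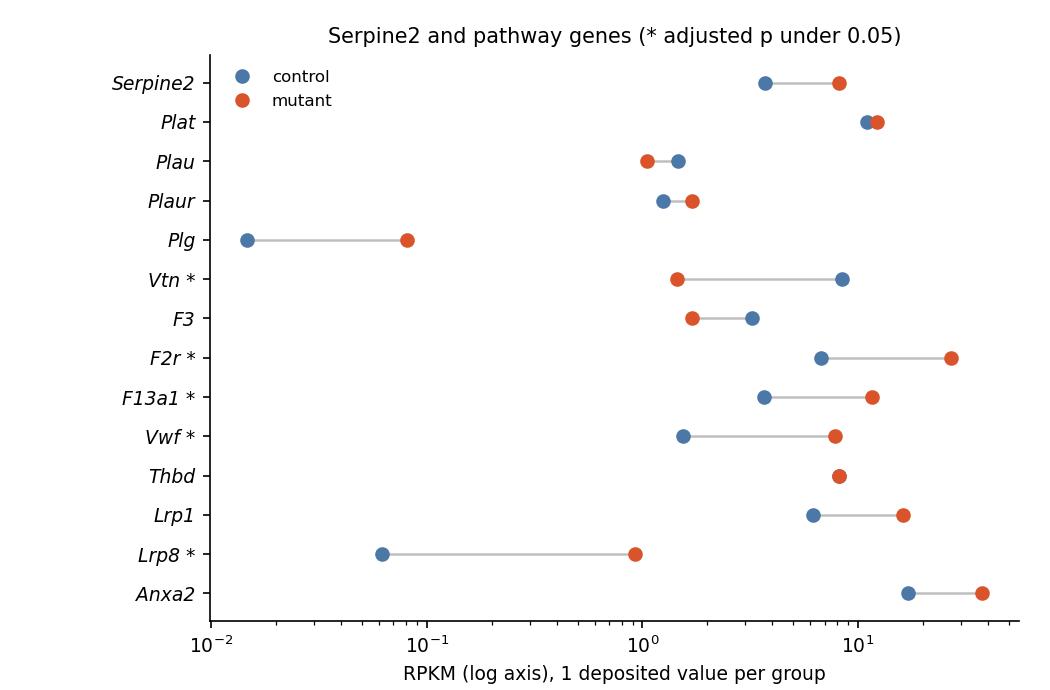
RPKM of Serpine2 and of genes for plasminogen activation, coagulation and serpin clearance on a log axis, with control in blue and mutant in red and an asterisk on genes called by the authors' adjusted p. Vtn is the one called gene whose mutant value, 1.44 RPKM, is left of its control value, 8.46 RPKM, while Plat and Thbd are nearly the same in both groups.

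Among 27 tested genes for receptors, cofactors and substrates of serpins, 5 were called higher and 2 lower, beside 2.42% and 1.64% of protein coding rows. Lrp8, a lipoprotein receptor of the family that clears serpin complexes, was at 0.0621 RPKM in control ventricles and 0.921 RPKM in mutant ventricles. Ace, which cuts the peptide made from the serpin angiotensinogen, was at 3.75 and 40.6 RPKM, with an adjusted p of 2.44e-06 in the authors' deposited table. The other called genes that were higher were the Wnt co-receptor Lrp5, at 4.81 and 15.9 RPKM, and the heparan sulfate proteoglycans Sdc4, at 2.10 and 7.69 RPKM, and Gpc1, at 10.8 and 35.9 RPKM. The called genes that were lower were Vtn and Plxdc1, a receptor for Serpinf1, at 1.45 and 0.24 RPKM. Agt, angiotensinogen itself, is a serpin by sequence without the symbol, and it was at 0.501 and 0.349 RPKM and was not called. The most abundant genes of the list were not called, with Atp5a1 at 301 and 413 RPKM, Hspg2 at 52.3 and 54.3 RPKM and Pnpla2 at 21.3 and 45.3 RPKM. The best known clearance receptor, Lrp1, was at 6.17 and 16.1 RPKM with an adjusted p of 0.277 in the authors' deposited table.

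Clade b held 1 called gene, Serpinb1c, and several abundant members that were not called. Serpinb1c (mm9 chr13:32973702-32990030, minus strand) was listed at 0 in control and at 3.39 RPKM in mutant ventricle, with an adjusted p of 7.19e-12 in the authors' deposited table. Its paralog Serpinb1a was at 1.60 RPKM and 1.64 RPKM, with an adjusted p of 1 in the same authors' deposited table. Of the 36-base windows of Serpinb1c, 10.7% occur in a transcript of another gene. Serpinb1c shares 6.38% of them with Serpinb1a, so most windows of that length are not shared by the pair. It stood at 2.07 times the Serpinb1a level in the mutant.

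Serpinb6b and Serpinb6a were the most abundant clade b members and were not called. Serpinb6a is the mouse counterpart of human SERPINB6, an intracellular inhibitor of trypsin-like proteases and cathepsin G. Serpinb6b was at 6.16 RPKM in control ventricles and 17.8 RPKM in mutant ventricles, a fold of 2.89 with an unadjusted p of 0.00257 and an adjusted p of 0.0640 in the authors' deposited table. Serpinb6a was at 5.17 RPKM and 13.3 RPKM, a fold of 2.57 with an unadjusted p of 0.00935 and an adjusted p of 0.152 in the authors' deposited table. The ratio of Serpinb6b to Serpinb6a was 1.19 in control and 1.34 in the mutant. The Serpinb6a row overlaps rows on the other strand, among them the lincRNA 1110046J04Rik at 0.712 and 3.76 RPKM, and whether the counting used strand is not given in the sources used here. Of the 36-base windows of Serpinb6a, 19.1% occur on either strand in a transcript of another gene, and 11.9% in 1110046J04Rik. For Serpinb6b 5.70% occur elsewhere. Serpinb9, which protects cells from granzyme B, was at 2.12 RPKM and 2.67 RPKM and was not called.

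Clade b forms 2 clusters with different levels. On chromosome 13, 15 genes from Serpinb1a to Serpinb6a span 1.16 Mb of mm9 and summed to 15.3 RPKM in control ventricles and 39.2 RPKM in mutant ventricles. All 10 tested genes of that cluster had higher values in the mutant, beside 53.4% of tested protein coding rows, and 1 of them was called. Of these 10, 4 were listed at 0 in control, and the authors' deposited table gives Serpinb1a a fold of 1.03. On chromosome 1, 11 genes from Serpinb5 to Serpinb8 summed to 0.318 RPKM and 0.387 RPKM, of which Serpinb8 held 0.305 and 0.374 RPKM. Of these, 6 were tested and 0 were called by the authors' adjusted p.

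**Figure D5:**
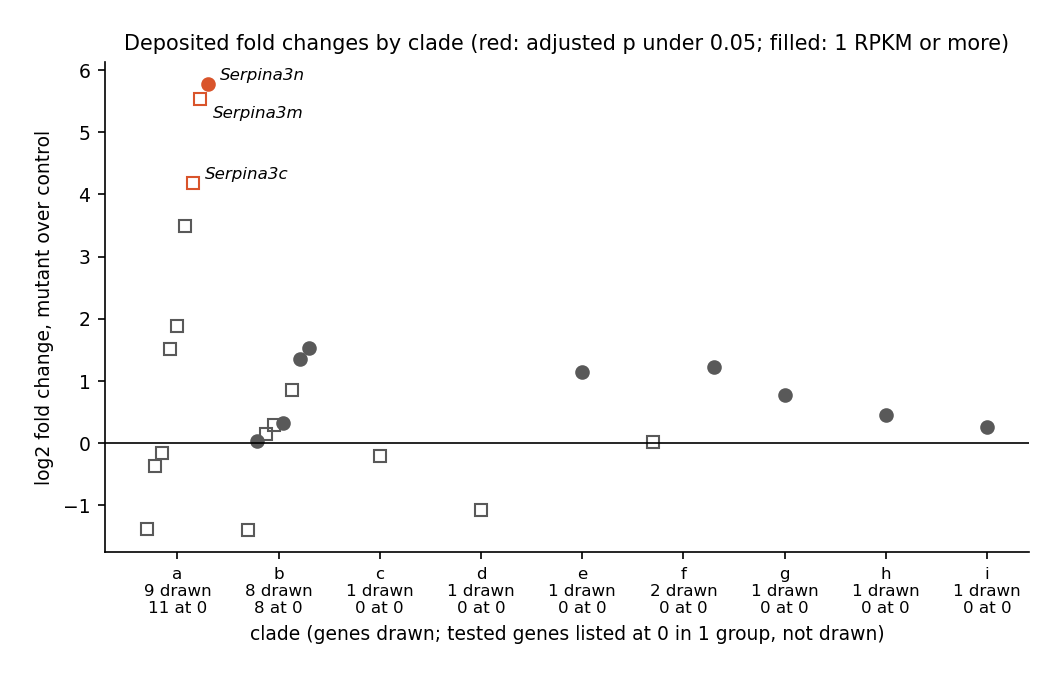
Deposited log2 fold change of each serpin above 0 in both groups, by clade, with red for genes called by the authors' adjusted p, filled points for genes at 1 RPKM or more in either group and open squares for the rest. Tested genes listed at 0 in 1 group, Serpinb1c among them, are counted under the axis and not drawn. All filled points lie above 0, and the points below 0 are open.

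Granule proteases that clade b and Serpina3 members are known to inhibit were scarce. Of 22 genes for granule proteins of granulocytes, mast cells and lymphocytes, all serine proteases but Mpo and Prf1, 16 were tested and 0 were called by the authors' adjusted p, nor was any at an unadjusted p under 0.05. Of protein coding rows, 4.06% were called. The 22 granule genes summed to 3.08 RPKM in control ventricles and 3.66 RPKM in mutant ventricles. Elane, neutrophil elastase, and Ctsg, cathepsin G, were listed at 0 in control and at 0.00711 RPKM and 0.00895 RPKM in the mutant. Gzmb, granzyme B, was listed at 0 in both groups. The most abundant of these genes were Gzmm, at 1.32 and 1.81 RPKM, and the mast cell proteases Tpsb2, at 0.531 and 0.793 RPKM, and Mcpt4, at 0.593 and 0.430 RPKM. Cysteine cathepsins, which some clade b serpins can also inhibit, were abundant. The cathepsin list also held proteases of other types, such as the aspartic protease Ctsd. Of 13 tested genes in the cathepsin list, 1 was called, and it was higher, beside 2.42% of protein coding rows called higher. That gene, Ctss, was at 3.17 RPKM in control ventricles and 12.2 RPKM in mutant ventricles, with an adjusted p of 0.0144 in the authors' deposited table. The cathepsins Ctsd, at 69.2 and 244 RPKM, Ctsl, at 31.3 and 66.5 RPKM, and Ctsb, at 31.1 and 65.1 RPKM, were not called.

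Of 31 tested genes for other serine proteases, 2 were called higher and 1 lower, beside 2.42% and 1.64% of protein coding rows. Masp1, a protease of the lectin complement pathway that Serping1 inhibits, was at 0.279 RPKM in control ventricles and 1.53 RPKM in mutant ventricles, and St14, the membrane protease matriptase, was at 0.0630 and 0.463 RPKM. Corin, the heart protease that activates the natriuretic peptide precursor, was at 13.4 and 4.02 RPKM, with an adjusted p of 0.0364 in the authors' deposited table. Htra3, at 16.3 and 37.5 RPKM, Pcsk6, at 10.6 and 13.8 RPKM, and Htra1, at 10.8 and 10.5 RPKM, were not called.

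Serpinh1 and the secreted clade f and g members were abundant and not called. Serpinh1 was at 106 RPKM in control ventricles and 145 RPKM in mutant ventricles, a fold of 1.37 with an adjusted p of 0.9999 in the authors' deposited table. Serping1, the C1 inhibitor of complement and the contact system, was at 14.6 RPKM and 25.1 RPKM with an adjusted p of 0.617 in the authors' deposited table. Serpinf1, or pigment epithelium-derived factor, a secreted member that does not inhibit proteases, was at 7.09 RPKM and 16.6 RPKM, with an unadjusted p of 0.0155 and an adjusted p of 0.205 in the authors' deposited table. Its neighbour Serpinf2, or alpha-2-antiplasmin, was at 0.0160 RPKM and 0.0162 RPKM. Serpini1, or neuroserpin, an inhibitor of tPA best known from neurons, was at 0.880 RPKM and 1.06 RPKM and was not called, and Serpini2 was listed at 0 in both groups.

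The collagens that Serpinh1 folds, and the enzymes it works with, were mostly higher in value, and few of the folding genes were called. Of 19 tested collagen chain genes 3, or 15.8%, were called, all higher, beside 4.06% of protein coding rows in either direction: Col12a1 at 0.270 RPKM in control ventricles and 5.49 RPKM in mutant ventricles, Col8a1 at 3.57 and 59.5 RPKM, and Col11a1 at 0.151 and 1.03 RPKM. The abundant chains were not called, with Col1a1 at 110 and 218 RPKM, Col3a1 at 146 and 185 RPKM and Col4a1 at 118 and 197 RPKM. Of 28 tested genes for collagen folding and modification, 26 had higher values in the mutant and 1, or 3.57%, was called. That gene was Leprel1, a collagen prolyl 3-hydroxylase, at 0.704 and 4.37 RPKM, with an adjusted p of 1.71e-04 in the authors' deposited table. The abundant members Sparc, at 315 and 489 RPKM, Ppib, at 60.9 and 79.4 RPKM, and P4hb, at 34.0 and 81.8 RPKM, were not called. Median log2 fold changes were 0.75 for the collagen chains and 0.61 for the folding genes.

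Protease inhibitors of other families held 3 called genes of 34 tested, beside 4.06% of protein coding rows called in either direction. Ahsg, or fetuin-A, a plasma protein of the cystatin superfamily, was at 0.662 RPKM in control ventricles and 14.0 RPKM in mutant ventricles, a fold of 21.1 with an adjusted p of 4.12e-11 in the authors' deposited table. A2m, the broad trap alpha-2-macroglobulin, was at 0.0846 and 0.677 RPKM, and Papln was lower at 4.50 and 1.11 RPKM. The most abundant inhibitor was Cst3, cystatin C, at 166 and 335 RPKM, and it was not called, nor were Pi16, at 13.7 and 29.4 RPKM, and Wfdc1, at 19.1 and 10.2 RPKM. The median log2 fold change was 0.69 over the 26 of these inhibitors above 0 in both groups.

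Several serpins are products of liver, macrophages or fibroblasts in other tissues, so markers of those cells were read in the same table. In bulk tissue, more cells of a type and more RNA per cell cannot be told apart. Counts of called markers here and in the next paragraph stand beside 2.42% of protein coding rows called higher and 1.64% called lower. Of 12 hepatocyte markers 0 were called, and their sum was 0.647 RPKM in control ventricles and 0.573 RPKM in mutant ventricles. Their values were higher in the mutant for 8 and lower for 4. Apoa1, Apoa2, Apob, Fga, Fgg and Cps1 were listed at 0 in control and Fgb in the mutant. Of 15 macrophage markers 2 were called higher, Lyz2 and Lgals3, and the sum was 82.9 RPKM and 235 RPKM. Higher values were held by 14 of them, beside 53.4% of tested protein coding rows, and a lower one by Ptprc, at 1.31 and 0.906 RPKM. Lyz2, at 18.4 and 90.5 RPKM, and C1qa, C1qb and C1qc had the highest values of the list in both groups. Csf1r, at 6.01 and 7.67 RPKM, and Cx3cr1, at 1.88 and 2.63 RPKM, were higher by less and not called. Of 14 fibroblast markers 0 were called, 9 had higher values and 5 lower ones, and the sum was 977 RPKM and 1394 RPKM. Of 12 neutrophil markers 0 were called, 8 had higher values and 4 lower ones. Their sum was 5.30 RPKM and 7.84 RPKM, with Elane and Ly6g listed at 0 in control.

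Of 8 mesothelial markers 3 were called higher, the keratins Krt18, Krt8 and Krt19, and the sum was 3.26 RPKM and 21.9 RPKM. Higher values were held by 7 of them and a lower one by Wt1. Msln and Wt1 stood at 0.303 and 0.360 RPKM, and at 1.64 and 0.998 RPKM. Of 12 endothelial markers 1 was called, Vwf, which was higher, and the sum was 239 RPKM and 258 RPKM. But 7 of the 12 had lower values in the mutant and 5 higher ones, with a median log2 fold change of -0.242. Of 8 mast cell markers Kit was called lower and 5 had higher values. Their sum was 3.55 RPKM and 2.50 RPKM, or 1.74 RPKM and 2.08 RPKM without Kit. Of 7 Schwann cell markers 0 were called, 5 had higher values and 2 lower ones, and the sum was 3.44 RPKM and 4.88 RPKM. The 12 cardiomyocyte markers, with the labelled tissue's defining genes Myh6, Tnnt2 and Actc1 among the highest values, summed to 10784 RPKM and 11274 RPKM and 0 were called. Of these 12, 9 had lower values in the mutant, the median log2 fold change was -0.31, and without Actc1, at 2380 and 4530 RPKM, the sum was 8404 RPKM and 6744 RPKM. The part of any of these cell types in the serpin levels was not tested.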

How the data were processed

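RNA was sequenced from 4 ventricle samples in 2 groups of 2. Per the submitters' processing notes, Bowtie 0.12.9 and DESeq were used on genome build mm9; the sources used here do not state which step each served, the read length, the strand setting or the annotation. The authors deposited 1 table with 1 RPKM value for each gene and group. It also holds the deposited fold change (a linear ratio, mutant over control), its log2, a p-value and its adjusted form, per the file headers. Directions were read from the fold, since the log2 column writes inf at a fold of 0 too.

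Genes were called at a deposited adjusted p under 0.05. The deposited folds matched the ratio of the RPKM values within 0.971% over 10320 rows, and a Benjamini-Hochberg adjustment over the 24454 tested rows (checked on simulated data) matched the deposited one within 0.593%. The lowest called fold above 1 was 3.03. With no values per sample, no replicate test could be run, and the tests planned for such values were replaced by the authors'. Sums and medians have no error. Of the 24454 tested rows 859, or 3.51%, were called.

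The members, the 12 companion lists, the 9 marker lists and the motifs were chosen with earlier results of these data known. Named were all called serpins, all at 1 RPKM or more, those at an unadjusted p under 0.05, and in each companion list the called genes and up to 3 uncalled genes of highest mean RPKM; other genes are named for their known role or after their values were seen. 1 serpin gene is not reported here, and every count, sum and median over serpins is without it. Coding sequences of the 58 members and 141767 transcripts came from GENCODE M21. The loop stretch was found in 37 members by a translated pattern for the hinge and the closing phenylalanine. Windows of 36 and 50 bases were searched on both strands. Identity is matches over the length of a global alignment. Python 3.11.15, pandas 2.3.3, numpy 2.4.6, scipy 1.17.1, Biopython 1.88 and matplotlib 3.10.9 were used. Alternatives were the threshold, the rows adjusted over, the filter on low RPKM, centring and pseudocounts.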

Additional observations from a re-analysis of the deposited data

Results flagged for a closer look

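Rows outside the protein coding set also carried serpin symbols. Serpina3h, a processed transcript whose row overlaps Serpina3g, was at 0.0890 RPKM in control ventricles and 0.429 RPKM in mutant ventricles, with an unadjusted p of 0.0164 and an adjusted p of 0.212 in the authors' deposited table. Serpinb1-ps1, a pseudogene row, was listed at 0 in control and at 0.0335 RPKM in the mutant. Each was picked out because its mutant value lay above its control value in rows that the comparison of serpins did not use, and neither was called.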

How the results depend on the processing

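The 4 called serpins became 5 at a threshold of 0.1 (with Serpinb6b) and 3 at 0.01 (without Serpina3c, adjusted p 0.0203 in the authors' deposited table). Adjusted over rows with a mean of at least 0.1, 1 or 5 RPKM, Serpinb6b had an adjusted p of 0.0457, 0.0428 and 0.0387. At a mean of at least 5 RPKM fewer genes were tested and 2 serpins were called, 2 of them higher. The count over all rows was 497 at the 0.01 threshold and 341 at the 5 RPKM minimum. At a threshold of 0.1, fibroblast markers had 1 called gene and collagen folding 3. At a mean of at least 1 RPKM, called genes numbered 1 for fibroblast markers, 1 for mesothelium, 1 for other serine proteases, 2 for collagen folding and 5 for the glucocorticoid response.

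The medians in this paragraph start from genes averaging 0.1 RPKM or more, which lets genes in through the mutant value alone. For all serpins the median log2 fold change over 18 genes was 0.9975; it was 1.44 with no minimum, 1.19 at 1 RPKM, 0.92 centred on protein coding rows, and 0.95 and 0.45 with pseudocounts of 0.1 and 1 RPKM. For clade a it was 4.86 over 4 genes, of which Serpina3c and Serpina3m pass through the mutant value, beside 1.88 over the 9 genes above 0 in both groups; it was 5.77 at 1 RPKM, where Serpina3n is the one gene left, 4.78 centred, and 2.19 and 0.53 with the pseudocounts. For clade b it was 0.59 over 8 genes, of which Serpinb1c passes through the mutant value, beside 0.31 over the 8 genes above 0 in both groups. It was 1.45 with no minimum, where 7 of 16 genes were listed at 0 in control. At 1 RPKM it was 1.36, centred 0.52, and 0.44 and 0.19 with the pseudocounts. None of these changed sign, but little could: a pseudocount keeps the sign of each gene's log ratio, and centring took off 0.0741. The unchanged sign is therefore no support for a direction. No paired analysis was possible because the table has 1 value per group, and for the same reason leaving out a replicate and the planned count models were not run. Depth is unknown, so values listed at 0 have no upper limit here.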

Other observations

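Genes of the acute phase, glucocorticoid and TGF-beta responses were read in the same table, with no test of a link. These lists were chosen with earlier results of these data known, and the shares set beside them do not allow for that choice. Of 34 tested acute phase genes 5 were called higher and 0 lower, beside 2.42% and 1.64% of protein coding rows: Lcn2, an iron-binding protein of neutrophils and injured tissue, at 0.0820 RPKM in control ventricles and 1.58 RPKM in mutant ventricles, the metallothionein Mt2 at 0.817 and 9.50 RPKM, the transcription factor Cebpd at 3.60 and 17.1 RPKM, the lipopolysaccharide-binding protein Lbp at 0.437 and 1.90 RPKM, and the metalloprotease inhibitor Timp1 at 2.71 and 11.1 RPKM. The Cebpd row is typed as a pseudogene, so it is not among the protein coding rows behind those shares. Of the genes not called, the receptor subunit Il6st was at 8.89 and 15.9 RPKM, Mt1 at 26.3 and 44.0 RPKM and Junb at 5.29 and 13.9 RPKM.

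Of 18 tested glucocorticoid response genes 8 were called higher and 1 lower, beside 2.42% and 1.64% of protein coding rows. Fkbp5, a co-chaperone of the glucocorticoid receptor, was at 0.465 RPKM in control ventricles and 11 RPKM in mutant ventricles, with an adjusted p of 8.95e-13 in the authors' deposited table. Hif3a was at 0.174 and 1.42 RPKM, Ddit4 at 15.9 and 61.4 RPKM, Errfi1 at 4.37 and 14.7 RPKM, and Hsd11b1, which makes active glucocorticoid, at 0.0687 and 0.566 RPKM. The others called higher were Cdkn1a, Lcn2 and Mt2. Lcn2 and Mt2 are also counted among the called acute phase genes. The mineralocorticoid receptor Nr3c2 was called lower, at 1.05 and 0.223 RPKM. Dusp1, at 20.9 and 32.5 RPKM, Klf9, at 30.4 and 36.3 RPKM, and Pdk4, at 36.1 and 29.9 RPKM, were not called. Nor was the glucocorticoid receptor Nr3c1, at 14.5 and 7.44 RPKM. Of the 18 genes, 15 had higher values in the mutant and 3 lower ones.

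Of 26 tested TGF-beta response genes 7 were called higher and 0 lower, beside the same shares. Ctgf, a matrix-associated growth factor, was at 15.5 RPKM in control ventricles and 269 RPKM in mutant ventricles, with an adjusted p of 1.08e-05 in the authors' deposited table. The ligands Tgfb2, at 2.18 and 10.9 RPKM, and Tgfb3, at 3.22 and 15.7 RPKM, and the inhibitory Smad7, at 3.15 and 10.1 RPKM, were among them, with Cyr61, Ltbp2 and Tagln. Acta2, at 158 and 802 RPKM, was not called, with an adjusted p of 0.171 in the authors' deposited table. Over genes above 0 in both groups, the median log2 fold change was 1.21 for the acute phase, 1.36 for the glucocorticoid and 1.03 for the TGF-beta genes, beside 0.01 for all such protein coding rows.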
